A study of Mus musculus with 2 samples.

Results

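The nuclei described here are those that the deposited table of the study places in cluster 23 and labels Unknown, 62 of the 8171 nuclei in the table (35 male and 27 female). They are the whole of deposited cluster 23, and they make up 62 of the 395 nuclei labelled Unknown. The study used this label for neurons that it could not establish as cortical. The mice were Atf3-CreER::Sun1-sfGFP animals over 7 weeks old, given mild traumatic brain injury (mTBI) and then tamoxifen at 4 and 5 days post injury (dpi). Their GFP+ nuclei were sorted at 7 dpi from the cortex on the injured side. Cre was driven from the Atf3 locus, so a nucleus was labelled where Atf3 was active while tamoxifen was present. Each library was a pool of 4 animals, 1 library per sex, and no uninjured animals or GFP- nuclei were analysed here. All groups below share the genotype, the injury and the tamoxifen. The tissue was dissected above the corpus callosum according to the methods of the study. For the female library, the sex field of the label reads male, whereas its name and the deposited table read female.

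Neurons in the cerebral cortex are either excitatory, releasing glutamate loaded into vesicles by Slc17a7 (VGLUT1), or inhibitory, releasing GABA made by Gad1 and Gad2. Granule neurons of the dentate gyrus, in the hippocampal formation that lies beneath the cortex, are also excitatory and are known for the transcription factor Prox1. Atf3 is a transcription factor that neurons switch on after axon injury, together with regeneration-associated genes such as Gap43, Sox11 and Sprr1a and with the integrated stress response gene Ddit3.

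2 promoters are shown because the results turn on their genes. Cyp11a1, the mitochondrial enzyme that cleaves the side chain of cholesterol in the opening step of steroid synthesis, was the gene furthest above the other neurons in these nuclei, and Atf3, the gene that drove the Cre, had no UMI in them. Each window runs from 250 bases before to 50 bases after a transcription start of RefSeq (GRCm38.p6). Capitals mark TGACGT on either strand in the Atf3 window (chr1:191183284-191183583, minus strand), the core of the cyclic AMP response element that ATF factors bind. They mark TCAAGG on either strand in the Cyp11a1 window (chr9:58014702-58015001, plus strand), the start of the element bound by steroidogenic nuclear receptors. TGACGT was found in 7.51% and TCAAGG in 14.4% of all 32851 promoter windows, so neither match is rare, and a match is not evidence of a bound site.
Atf3: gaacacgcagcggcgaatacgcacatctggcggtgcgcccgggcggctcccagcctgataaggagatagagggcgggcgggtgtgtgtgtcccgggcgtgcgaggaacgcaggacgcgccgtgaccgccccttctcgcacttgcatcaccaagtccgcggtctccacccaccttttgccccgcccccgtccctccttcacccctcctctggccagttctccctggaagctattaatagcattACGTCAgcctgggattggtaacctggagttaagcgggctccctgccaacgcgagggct
Cyp11a1: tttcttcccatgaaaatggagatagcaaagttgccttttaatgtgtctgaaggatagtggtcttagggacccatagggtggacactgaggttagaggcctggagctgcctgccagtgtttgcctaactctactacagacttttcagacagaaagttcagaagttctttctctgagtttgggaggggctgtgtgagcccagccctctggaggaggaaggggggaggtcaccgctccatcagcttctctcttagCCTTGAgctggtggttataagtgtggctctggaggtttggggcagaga
A second Cyp11a1 window, at chr9:57997774-57998073, held no TCAAGG.

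The nuclei of cluster 23 were a small and shallow group. Of 4003 male nuclei in the table they made up 0.874% (exact 95% binomial interval 0.61 to 1.21%), and of 4168 female nuclei 0.648% (0.427 to 0.941%), so the shares of the sexes lay within each other's counting error. Of the Unknown nuclei they were 15.6% (male) and 15.9% (female). The intervals cover counting error only, not the spread between animals. No barcode of cluster 23 occurred in both libraries, and 1 did in the whole table.

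The median nucleus of cluster 23 held 1089 UMIs in the male library (range 676 to 1843) and 2611 in the female library (903 to 13601). The median of cluster 7, the larger group of Unknown nuclei (190 male and 143 female), was 3722 and 8652 UMIs, and that of the neuron subset, the 1378 male and 1202 female nuclei that the authors kept in their neuron analysis (neither Unknown cluster is among them), was 3591 and 8501.5 UMIs. All 35 male nuclei of cluster 23 and 26 of the 27 female nuclei lay under the median of cluster 7 in their library. Only 3 male and 5 female nuclei of cluster 7 fell between the lowest nucleus and the 90th percentile of cluster 23, so depth and cluster cannot be told apart in these data. 1 female nucleus with 13601 UMIs held 16.9% of all female UMIs of cluster 23. Summed, the group gave 41689 male and 80707 female UMIs, at which 3 UMIs, the limit taken for a count of 0, correspond to 72.0 and 37.2 CPM (UMIs of a gene scaled to the same total in each group).

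**Figure D1:**
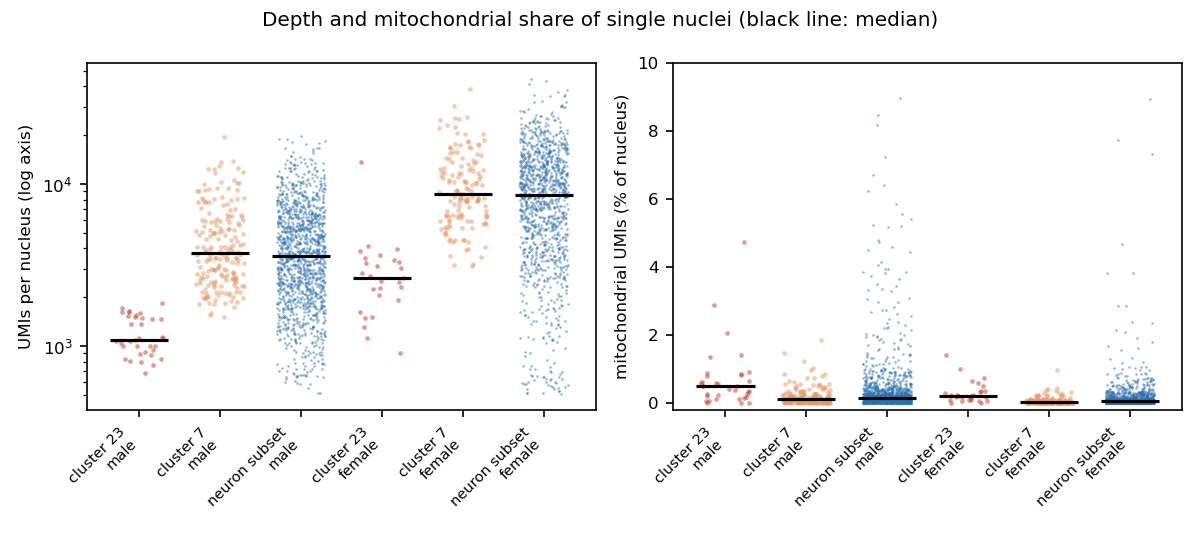
UMIs per nucleus (left, log axis) and mitochondrial UMIs as a percent of each nucleus (right) for cluster 23, cluster 7 and the neuron subset, by library. Each point is a nucleus and the black line is the median: cluster 23 has the lowest median UMIs (1089 and 2611) and the highest median mitochondrial share (0.498% and 0.224%) of the 3 groups in each library.

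Mitochondrial UMIs made up a median of 0.498% of a male and 0.224% of a female nucleus of cluster 23, against 0.116% and 0.0449% in cluster 7 and 0.154% and 0.0681% in the neuron subset. The noncoding gene Gm42418 took 7.04% of the male and 19.2% of the female UMIs of cluster 23, against 4.52% and 9.34% in cluster 7 and 14.9% and 21.9% in microglia. In single nuclei its share ran from 4.26 to 11.8% (male) and from 8.77 to 40.3% (female). When nuclei were thinned to 1000 UMIs, cluster 23 gave a median of 681 genes in 23 male and 608 in 26 female nuclei, close to the 665 and 629 genes of cluster 7.

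The deposited mapping to a reference, before the label was edited to Unknown, had placed 40 of the 62 nuclei in L6 IT CTX, 20 in L2/3 IT CTX-1 and 2 in Micro-PVM, the microglial label. Cluster 7 had been placed in L2/3 IT CTX-1 for 315 of its 333 nuclei (94.6%) and in L6 IT CTX for 11. The nuclei mapped to L6 IT CTX were shallower (median 1067 male and 2234 female UMIs) than those mapped to L2/3 IT CTX-1 (1492.5 and 3272.5 UMIs). Camk2a, a kinase subunit of excitatory neurons, reached 1839 and 1498 CPM in the nuclei mapped to L6 IT CTX and 930 and 1642 CPM in those mapped to L2/3 IT CTX-1. The transcription factor Zbtb20 reached 1643 and 1605 CPM in the former and 1860 and 2150 CPM in the latter. Cyp11a1 stood at 157 and 455 CPM (4 and 17 UMIs) in the former and at 620 and 313 CPM (10 and 8 UMIs) in the latter. Its order was thus opposite in the 2 libraries and rests on few UMIs. Of 2 dentate granule markers described below, the former held 9 and 18 UMIs of Trpc6 (352 and 482 CPM) and 6 and 6 of Prox1 (235 and 161 CPM). The latter held 3 and 2 UMIs of Trpc6 (186 and 78.2 CPM) and 0 and 5 of Prox1 (0 and 195 CPM). The 2 nuclei mapped to microglia were both female, held 4156 and 13601 UMIs, and carried 6 and 20 UMIs of Camk2a and 2 and 9 UMIs of 9 microglial marker genes.

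Leading markers of excitatory neurons were seen in most of these nuclei, although not every marker went that way. The neuronal splicing factor Rbfox3 (NeuN) had a UMI in 58 of 62 nuclei (93.5%, exact 95% interval 84.3 to 98.2%), Camk2a in 56 (90.3%), and Slc17a7 or Camk2a in 33 of 35 male and all 27 female nuclei. After thinning to 1000 UMIs, 95.7% of 23 male and 92.3% of 26 female nuclei held Slc17a7 or Camk2a, against 68.9% and 72.7% in cluster 7 and 28.2% and 22.0% in the neuron subset. Microglia, which should lack both genes, held one in 8.97% and 6.72% of nuclei at that depth. Gad1 had no UMI and Gad2 a single UMI in the 62 nuclei, where the level of the neuron subset would have given 7.95 and 11.7 UMIs. The GABAergic list as a whole was not low, at 1223 and 1041 CPM against 1029 and 1093 CPM in the neuron subset. Most of it was Adarb2 (1079 and 942 CPM), with a UMI in 49 of 62 nuclei. Of 10 glutamatergic genes, 6 had a UMI and 2 could be compared by size, both called higher. The second vesicular glutamate transporter Slc17a6 (VGLUT2), which marks thalamic neurons, had no UMI. Of 9 pan-neuronal genes that could be compared by size, Rbfox3 lay at least 2-fold above the neuron subset in both libraries, 3 lay at least 2-fold below it, and the list's median log2 ratio was -0.93 and -1.83. Snap25, of the vesicle fusion machinery, reached 528 and 211 CPM against 1008 and 866 CPM.

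Slc17a7 (chr7:45163949-45176142 in GENCODE vM21, GRCm38) was counted with 20 male UMIs, 480 CPM (exact 95% Poisson interval 293 to 741), and 18 female UMIs, 223 CPM (132 to 352). The neuron subset stood at 46.1 and 19.1 CPM and cluster 7 at 210 and 133 CPM. In a ranking of 19 groups (each of at least 20 nuclei over both libraries), cluster 23 was first and cluster 7 the second for Slc17a7 in both libraries, and the next group was L5 IT CTX with 154 CPM (male) and L2/3 IT CTX-1 with 43.1 CPM (female). At 1000 UMIs, 47.8% of male and 30.8% of female nuclei of cluster 23 held a Slc17a7 UMI, against 24.7% and 16.1% in cluster 7 and 3.23% and 1.29% in microglia. In the 63 male and 47 female nuclei of cluster 7 with the fewest UMIs, Slc17a7 stood at 403 and 161 CPM. In the 63 and 47 deepest nuclei of cluster 7 it stood at 125 and 128 CPM. Its level over cluster 7 can therefore not be told apart from depth.

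Among the marker lists for brain regions and neuron types, the dentate granule list stood furthest above the neuron subset. Its 6 genes (Prox1, Dsp, C1ql2, Trpc6, Plk5 and Calb1) summed to 576 and 607 CPM in cluster 23, to 794 and 801 CPM in cluster 7 and to 66.3 and 63.5 CPM in the neuron subset. All 6 were seen, with 73 UMIs in all, most of them from Trpc6 and Prox1. At 1000 UMIs, 10 of 23 male nuclei (43.5%, exact 95% interval 23.2 to 65.5%) and 12 of 26 female nuclei (46.2%, 26.6 to 66.6%) held a UMI of the list. The shares were 48.9% and 49.7% in cluster 7, 5.73% and 4.77% in the neuron subset and 4.28% and 2.67% in microglia. The shares of clusters 23 and 7 lay within each other's intervals, and both lay above the neuron subset.

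Prox1 (chr1:190118035-190170714) had 6 male and 12 female UMIs, 144 CPM (exact 95% interval 52.8 to 313) and 149 CPM (76.8 to 260), against 7.84 and 8.44 CPM in the neuron subset. It had a UMI in 5 of 35 male and 6 of 27 female nuclei, and at 1000 UMIs in 17.4% and 15.4%, close to the 17.9% and 21.0% of cluster 7 and above the 3.4% and 2.24% of microglia. The cation channel gene Trpc6 was the list's only gene with enough UMIs to be compared by size, with 12 and 22 UMIs, 288 and 273 CPM, against 36.3 and 34.2 CPM. The desmosomal gene Dsp had 2 and 8 UMIs and the kinase gene Plk5 had 2 and 5. Calb1, the calcium buffer calbindin, had 2 and 1 UMIs and C1ql2 0 and 1, so these members rest on few molecules.

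As for the dentate granule list, the UMIs of the other region lists came mostly from 1 or 2 genes each. Of the hippocampal pyramidal list, Zbtb20 had 72 male and 170 female UMIs (1727 and 2106 against 203 and 174 CPM, with 657 and 776 CPM in ambient RNA, taken from barcodes under 100 UMIs) and Grik4, a kainate receptor, had 15 and 25, while Wfs1, Spink8, Fibcd1 and Pou3f1 had none. Of the thalamic list, Rora had 36 and 39 UMIs and Ntng1 20 and 44, and Gbx2, Lef1, Shox2 and Zic1 had none. Of the claustrum and L6b list, the vesicle protein Synpr had 41 and 49 UMIs, and of the striatal list the phosphodiesterase Pde10a had 21 and 42. The cholinergic and peripheral sensory lists had 0 UMIs, the Cajal-Retzius list 2 and the cerebellar granule list 3. Among cortical layer genes, the upper-layer factor Cux2 was lower than in the neuron subset (48.0 and 37.2 against 249 and 219 CPM), while Bcl11b (CTIP2), which marks deep-layer cortical neurons and is also expressed in the hippocampus, was higher (288 and 434 against 35.8 and 34.3 CPM). Rorb, of layer IV, had 1 UMI, and Fezf2 and Crym had none.

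**Figure D2:**
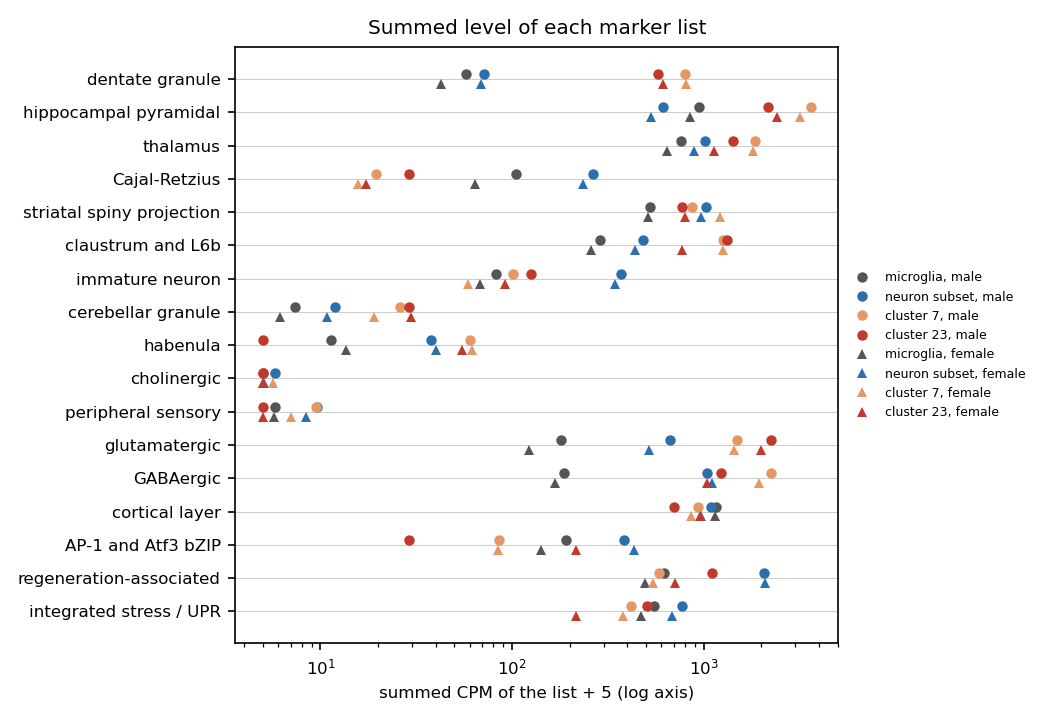
Summed CPM of each marker list plus 5 (log axis) in cluster 23, cluster 7, the neuron subset and microglia, with circles for the male and triangles for the female library. For the dentate granule list, cluster 23 (576 and 607 CPM) lies beside cluster 7 and away from the neuron subset (66.3 and 63.5 CPM); for the AP-1 and regeneration-associated lists it lies below the neuron subset.

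Across the 931 genes that could be compared, the summed profile of cluster 23 was most like that of cluster 7. Spearman's correlation of log2(CPM + 5) was 0.837 (male) and 0.867 (female). The next of the 18 groups was L5 IT CTX for the male (0.386) and L4/5 IT CTX for the female library (0.446), and the lowest was the fibroblast-like VLMC group (0.0799 and 0.196). These are correlations across genes, which are not independent replicates, and groups of few nuclei have noisier sums. Each nucleus was also matched to the group profiles of the opposite library by multinomial likelihood without mitochondrial genes, Gm42418, Gm26917, Cmss1, Malat1 and Xist. All 62 nuclei of cluster 23 matched cluster 7 best, those mapped to microglia included, as did 189 of 190 male and all 143 female nuclei of cluster 7. Cluster 23 itself was neither the best nor the second group of any of its nuclei. The match is therefore read only against the other labelled groups. Since cluster 7 stood far above these in the correlations, the match is no separate support.

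**Figure D3:**
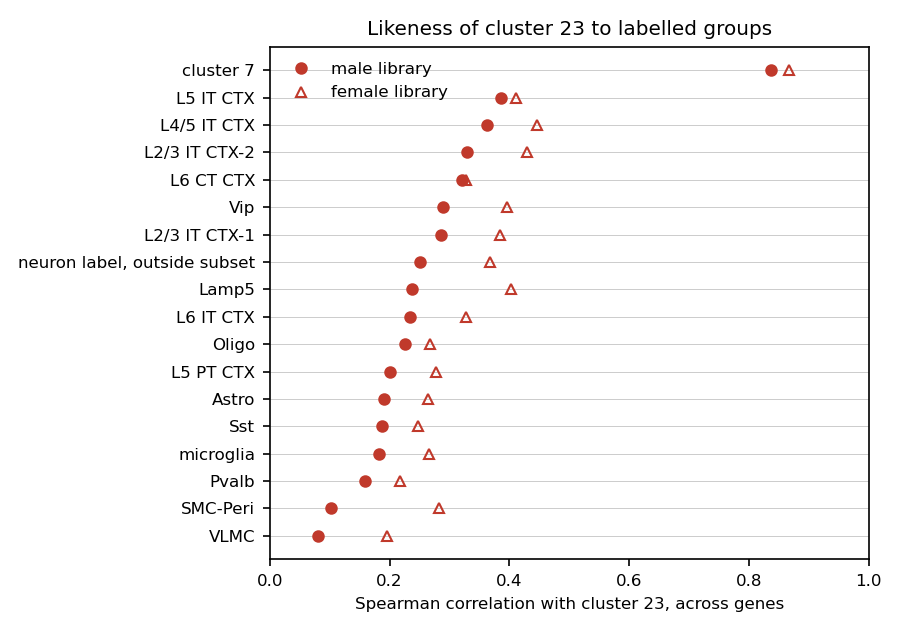
Spearman's correlation between the summed profile of cluster 23 and that of each labelled group of at least 20 nuclei over both libraries, across 931 genes, with filled circles for the male and open triangles for the female library. Cluster 7 stands alone at 0.837 and 0.867, and no other group exceeds 0.446.

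Against the neuron subset, genes were compared by size: a gene was called where its ratio of CPM + 5 was at least 4-fold in the same direction in both libraries, with at least 10 UMIs seen or expected in each. No test was made, since the clusters were drawn from the same counts and each sex has 1 library. Of 931 genes, 79 were higher (8.49% of the genes compared) and 62 lower (6.66%). At a size of 2-fold, chosen after the values were seen, 188 were higher (20.2%) and 165 lower (17.7%). In the male library alone 120 were higher and 81 lower, in the female alone 163 and 159, and no gene was called in opposite directions. The balance of the calls depended on scaling. With TMM factors 55 were higher and 131 lower, and with DESeq2 size factors 68 and 99. Cluster 7 lay at least 4-fold from the neuron subset in the same direction for 63 of the 79 and 58 of the 62. At 2-fold it did so for all 79 and all 62. Set beside cluster 7, 52 of the 79 and 26 of the 62 lay within 2-fold of its level in both libraries.

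The leading gene was Cyp11a1 (chr9:58006411-58027023), with 14 male and 25 female UMIs. It stood at 336 CPM (exact 95% interval 184 to 563) and 310 CPM (200 to 457), against 5.23 and 2.52 CPM in the neuron subset and 115 and 55.1 CPM in cluster 7. The log2 ratio to the neuron subset was 5.06 and 5.39. It had a UMI in 9 of 35 male and 14 of 27 female nuclei. At 1000 UMIs the share was 17.4% and 26.9%, against 10.5% and 4.2% in cluster 7 and 0.162% and 0% in microglia. In ambient RNA Cyp11a1 was at 10.4 and 4.35 CPM.

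Of the other leading genes, Cplx2, a complexin that binds the SNARE complex, reached 504 and 446 CPM against 33.0 and 22.7 CPM in the neuron subset. C1ql3, a secreted synaptic organiser, reached 480 and 409 CPM against 31.7 and 19.6 CPM. Shisa6, an auxiliary subunit of AMPA receptors, reached 720 and 458 CPM against 49.2 and 40.4 CPM. The log2 ratios of these 3 genes were 3.35 to 4.07.

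Dock10, an exchange factor for small GTPases, stood at 1031 and 743 CPM against 51.4 and 39.1 CPM, although oligodendrocytes were higher (2422 and 2587 CPM). Trpm3, a cation channel, stood at 1103 and 805 CPM against 71.9 and 54.6 CPM, with pericytes at 19758 CPM (male) and VLMC at 6396 CPM (female). St6galnac5, a sialyltransferase, stood at 1223 and 706 CPM against 52.9 and 57.7 CPM.
Sphkap, which anchors protein kinase A, had log2 ratios of 3.41 and 3.82. The pseudokinase Camkv had 4.45 and 3.97 and the axon guidance receptor Robo3 4.50 and 3.51. Fam163b, Slc24a4 (a sodium, potassium and calcium exchanger), Rapgefl1 and Pdzd2 lay between 3.38 and 4.87 in both libraries. These 15 genes were chosen from the same counts for their height over the neuron subset, so their ranks are no separate support. For 12 of these 15 genes, clusters 23 and 7 were the highest of the 19 groups in both libraries. The exceptions were Dock10, Trpm3 and Slc24a4, each highest in a non-neuronal group in at least 1 library.

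**Figure D4:**
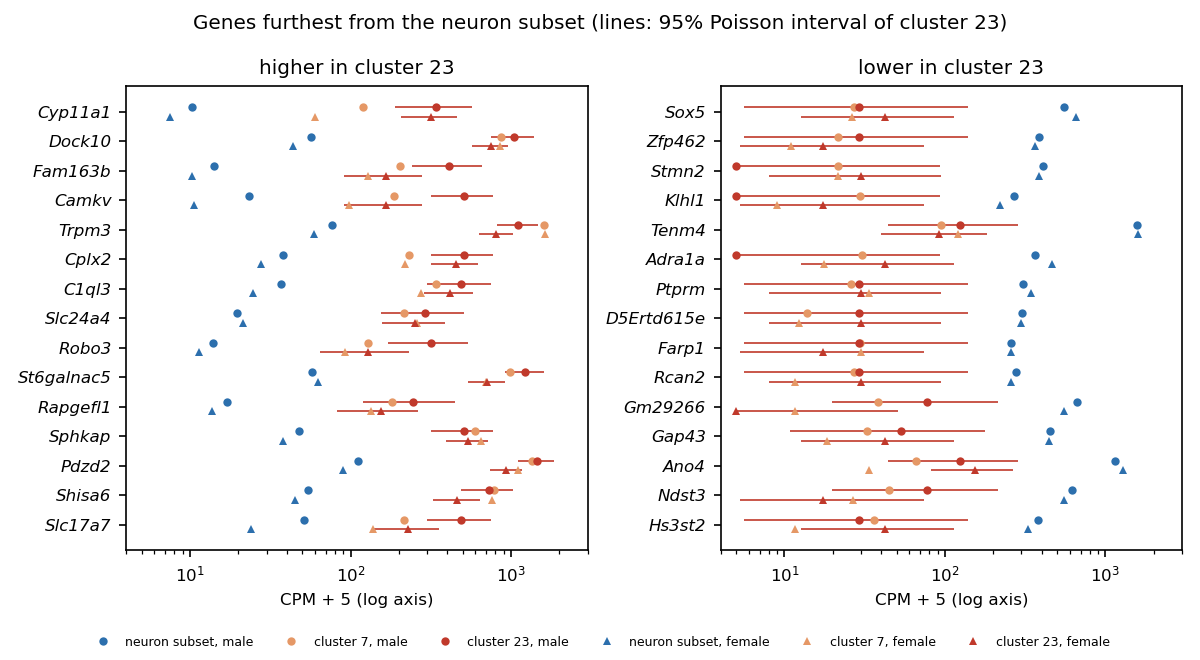
CPM + 5 (log axis) of the 15 genes furthest above (left) and the 15 furthest below (right) the neuron subset, in cluster 23 (red, with exact 95% Poisson intervals), cluster 7 (orange) and the neuron subset (blue), with circles for the male and triangles for the female library. For each gene the red and orange points lie together on 1 side of the blue points, and in the panel of lower genes most red points rest on 0 to 5 UMIs.

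The lowest genes were seen in 0 to 12 UMIs per library. Tenm4, a teneurin of synaptic adhesion, had 5 and 7 UMIs, 120 and 86.7 CPM, against 1570 and 1586 CPM in the neuron subset. Ano4 had 5 and 12 UMIs against 1140 and 1275 CPM. Sox5, a transcription factor of deep-layer neurons, had 1 and 3 UMIs, 24.0 CPM (exact 95% interval 0.607 to 134) and 37.2 CPM (7.67 to 109), against 550 and 651 CPM. Both intervals lay under the level of the neuron subset.
Stmn2, a tubulin-binding protein of growing neurites, had 0 and 2 UMIs against 404 and 379 CPM. Klhl1 and the adrenergic receptor Adra1a also had 0 UMIs in the male library, so their male levels are known only to be under 72.0 CPM. The heparan sulfate enzymes Ndst3 and Hs3st2 had 3 and 1 and 1 and 3 UMIs. Zfp462, Ptprm, D5Ertd615e, Farp1, Rcan2 and Gm29266 had at most 3 UMIs in either library.

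The counts of the following lists stand beside the shares over all genes compared with the neuron subset, 8.49% higher and 6.66% lower at 4-fold and 20.2% and 17.7% at 2-fold, and with so few members per list no count is read as particular to a list. Of 13 compared genes of potassium and related channels, 0 were called higher and 4 lower, 2 were at least 2-fold higher, and the median log2 ratio was 0.33 and -0.02. Among the lower genes were Kcnq5 (95.9 and 86.7 against 497 and 400 CPM), Kcnc2 (95.9 and 12.4 against 628 and 546 CPM) and Kcnh7 (216 and 124 against 890 and 722 CPM). The 14 glutamate receptor genes compared had a median log2 ratio of 1.07 and 0.93, beside 0.23 and 0.01 for all genes compared, with 1 called higher and 0 lower, and 6 higher and 1 lower at 2-fold. Of 8 GABA receptor genes, 2 were called higher and 0 lower, and at 2-fold 3 were higher and 1 lower. Gabrd, the delta subunit of extrasynaptic receptors, had 17 and 10 UMIs, 408 and 124 CPM against 17.8 and 9.66 CPM, and Gabra2 had 456 and 409 against 83.0 and 66.5 CPM.
Of 15 axon guidance genes, Epha7, Ntng1 and Ntng2 were called higher and Efna5 lower. Of 10 cadherins, Cdh9 was called higher and Cdh20 lower, shares near those of all genes. Of 8 calcium channel genes 0 were called, and 3 were higher and 0 lower at 2-fold. Of 2 sodium channel genes 0 were called, and 1 was higher at 2-fold. Adarb2, a marker of some cortical interneurons, was not called and stood at 1079 and 942 CPM, against 231 and 263 CPM in the neuron subset and 2150 and 1845 CPM in cluster 7.

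Atf3 (chr1:191170296-191218039), the gene that drove the label, had no UMI in any of the 62 nuclei, which allows a share of up to 4.84% of nuclei with a UMI at the limit of 3 counts, and of up to 5.78% by the exact 95% binomial interval. Its level in the neuron subset, 104 and 169 CPM, would have given 18.0 UMIs, so the level in cluster 23 was at least 5.99-fold lower, taking 3 UMIs over both libraries as the limit. Cluster 7 was low too, at 4.45 and 5.32 CPM, a level at which 0.615 UMIs would be seen in cluster 23. A difference from cluster 7 was therefore not detectable at this depth. Ambient RNA held 39.4 and 74.0 CPM of Atf3. At 1000 UMIs Atf3 was seen in 11.1% and 13.7% of nuclei of the neuron subset and in 2.26% and 2.33% of microglia. The reporter sequence had no UMI in cluster 23, but it was at 5.88 and 10.7 CPM in the neuron subset, under the limit of this depth.

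Other injury genes were also few. The regeneration-associated list summed to 1103 and 706 CPM in cluster 23, against 2052 and 2080 CPM in the neuron subset and 576 and 540 CPM in cluster 7. Of its 5 genes compared, Gap43, a growth cone protein, was called lower (2 and 3 UMIs, 48.0 and 37.2 against 448 and 439 CPM) and none higher, beside 6.66% lower and 8.49% higher of all genes compared. Sox11 had 3 and 3 UMIs. The list's median log2 ratio was -1.41 and -2.60.
Ecel1, a protease gene strongly raised in injured neurons, had 5 and 3 UMIs, 120 and 37.2 CPM, against 267 and 380 CPM in the neuron subset and 156 and 186 CPM in ambient RNA. At 1000 UMIs it was seen in 8.7% and 0% of nuclei, near the 3.96% and 2.8% of microglia. Ddit3 had 4 male and 0 female UMIs, and the stress response genes Trib3, Asns, Atf4 and Ern1 had none. The neuron subset's level would have given 4.44 UMIs of Trib3, 3.9 of Asns and 7.22 of Ern1. At the limit of 3 UMIs these were at least 1.48-, 1.3- and 2.41-fold lower. The integrated stress and unfolded protein response list, with 9 of 15 genes seen, summed to 504 and 211 CPM. The neuron subset had 763 and 678 CPM and cluster 7 had 411 and 376 CPM. No gene of the integrated stress and unfolded protein response list, the AP-1 list or the heat shock list reached 10 UMIs seen or expected in both libraries against the neuron subset, so none of them could be compared with it by size. The AP-1 list summed to 24.0 and 211 CPM against 381 and 429 CPM, with 12 of its 18 UMIs from female Jun.

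Markers of other cell types were mostly few. The oligodendrocyte precursor, endothelial, mural, VLMC and T cell lists had 0 to 2 UMIs each. Of the astrocyte list, the defining genes Aqp4, Gfap, Gja1 and Aldh1l1 were at 0, while the bicarbonate transporter Slc4a4 was called higher (288 and 372 against 26.9 and 30.0 CPM), with cluster 7 at 519 and 431 CPM. The astrocytic glutamate transporters Slc1a2 and Slc1a3 had 15 and 12 and 7 and 4 UMIs. The oligodendrocyte list had 38 UMIs, with Mbp at 6 and 9 and St18 at 6 and 10, and with Mog, Mobp and Opalin at 0. Ttr, of the choroid plexus, had 5 male UMIs. Of the microglial markers, 9 genes summed to 10 male and 21 female UMIs, with P2ry12 at 0 and 5, Inpp5d at 5 and 8, and the complement genes C1qa and C1qb at 0.
Those 9 genes set an upper estimate of ambient RNA in cluster 23 of 18.6% and 22.5% of UMIs, against 5.79% and 5.68% in cluster 7 and 7.95% and 6.15% in the neuron subset. At 1000 UMIs 13.0% and 7.69% of nuclei held one of them, against 10.5% and 7.02% in the neuron subset. After ambient RNA was subtracted at these estimates, 740 genes could be compared and 91 were higher and 82 lower than in the neuron subset, 74 and 49 of them among the 79 and 62.

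Cluster 23 and cluster 7 differed in few genes by size. Of 801 genes compared, 1 was at least 4-fold higher in cluster 23 in both libraries (0.125%) and 0 were lower (0%). That gene was mt-Cytb, the mitochondrial cytochrome b, with 42 and 37 UMIs, 1007 and 458 CPM against 201 and 91.7 CPM. In the male library alone 7 genes were higher and 4 lower, and in the female library alone 23 and 11. At 2-fold, 22 genes were higher (2.75%) and 18 lower (2.25%). Here too the balance moved with scaling, to 4 and 132 with TMM factors and to 13 and 51 with DESeq2 size factors.

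The 22 genes held all 8 mitochondrial genes compared, Gm26917 and Cmss1, as well as Cyp11a1 and Cplx2. Cyp11a1 had log2 ratios to cluster 7 of 1.51 and 2.39, the largest of the nuclear genes that passed 2-fold in both libraries by the smaller ratio of the 2 libraries. Also among them were Gabrg3, a GABA receptor subunit (288 and 198 against 106 and 76.4 CPM, and 1053 and 1150 CPM in the neuron subset), and the axon guidance receptor Dcc (480 and 285 against 165 and 121 CPM). Ambient RNA held 512 and 653 CPM of Gabrg3 and 1271 and 1298 CPM of mt-Cytb, above cluster 23 in both libraries, but 10.4 and 4.35 CPM of Cyp11a1. After the subtraction, 18 of 652 genes were higher, 9 of them among the 22.
The 18 lower genes included Stxbp6, a SNARE-binding protein (288 and 273 against 823 and 755 CPM), the synapsin Syn2 (95.9 and 161 against 441 and 441 CPM), the ciliary transcription factor Rfx3 (336 and 285 against 732 and 763 CPM) and Cdh9. The dentate granule genes were not called: Prox1 had log2 ratios to cluster 7 of -0.74 and -0.67 and Trpc6 of -0.47 and -0.62, beside medians of -0.04 and -0.29 for all genes compared.

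Among the genes compared, the difference from cluster 7 followed the length of the gene. The 200 genes of shortest span in the genome (up to 95.7 kb) had a median log2 ratio to cluster 7 of 0.58 and 0.37, and the 200 longest (over 408 kb) of -0.37 and -0.63, with the genes between them in order. The genes at least 2-fold higher had a median span of 11.0 kb and those at least 2-fold lower one of 259 kb, against 199 kb for all genes compared. Against the neuron subset the same split was narrower, 0.61 and 0.57 in the shortest and 0.04 and -0.15 in the longest genes. A gene could enter a comparison on UMIs seen in cluster 23 alone, which favours high ratios. It could also enter on UMIs expected from the other group alone, which favours low ratios. How far this choice of genes shapes the trend with length was not tested.

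**Figure D5:**
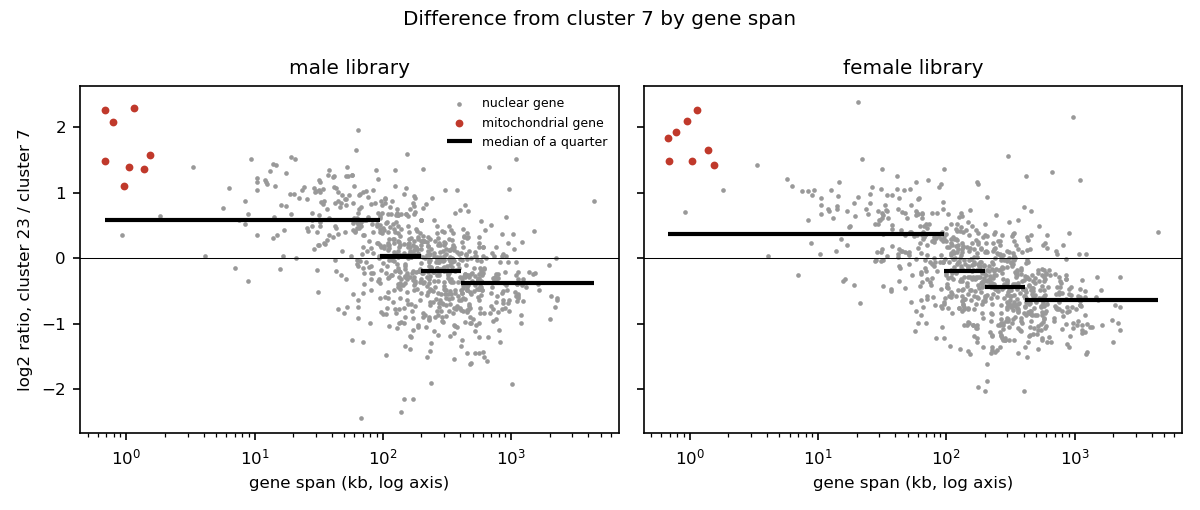
Log2 ratio of cluster 23 to cluster 7 for each gene compared, by the span of the gene in kilobases (log axis), in the male (left) and female (right) library, with mitochondrial genes in red and black bars for the median of each of 4 span bins. The bars fall from 0.58 to -0.37 (male) and from 0.37 to -0.63 (female), and all red points lie above 1. Genes entered on UMIs seen in cluster 23 or expected from cluster 7, which can itself shift the ratios.

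Within cluster 7, shallow nuclei lay nearer to cluster 23 than deep ones for some genes and not for others. In the 63 male and 47 female nuclei of cluster 7 with the fewest UMIs, mitochondrial genes took 0.3% and 0.137% of UMIs, against 0.132% and 0.0501% in the 63 and 47 deepest nuclei and 0.609% and 0.285% in cluster 23. Cyp11a1 was at 160 and 80.4 CPM in the shallow and 97.9 and 40.5 CPM in the deep nuclei. Rfx3 was at 459 and 522 CPM in the shallow and 823 and 874 CPM in the deep nuclei. Stxbp6 was at 757 and 587 CPM in the shallow and 850 and 806 CPM in the deep nuclei, against 288 and 273 CPM in cluster 23. Male Gabrg3 went the other way, with 97.3 CPM in the shallow, 119 CPM in the deep nuclei and 288 CPM in cluster 23. Female Gabrg3 was nearly equal in the shallow and deep nuclei (80.4 and 83.5 CPM), against 198 CPM in cluster 23. Male Ntm also went the other way, with 111 CPM in the shallow, 174 in the deep nuclei and 312 CPM in cluster 23. Female Ntm did not, with 84.4 CPM in the shallow, 47.9 in the deep nuclei and 285 CPM in cluster 23.
Compared with these shallow nuclei alone, an alternative added after the data were seen, 0 genes of cluster 23 were 4-fold higher or lower in both libraries. At 2-fold, 6 were higher and 7 lower. The higher genes were Cyp11a1 (log2 ratio 1.05 and 1.88), Gabrg3, Ntm, mt-Atp6, mt-Co3 and mt-Cytb, and the lower ones Cpne4, Ndst4, Reep1, Rtn3, Sema5a, Stxbp6 and Vps13b, all named after their values were seen. The shallow nuclei still held more UMIs than cluster 23, with medians of 2336 and 5446.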

How the data were processed

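Nuclei of 2 pooled libraries (10x Genomics 3′ chemistry) were analysed. Per the labels and file headers, the authors counted UMIs with CellRanger (headers: 7.0.1 male, 7.0.0 female; the submitters' notes list Cell Ranger 3.1.0, Seurat and DESeq2) on mm10. The deposited UMI counts are not normalized. The authors also deposited clusters, labels and the percent of mitochondrial UMIs per nucleus. A combined table of counts for both libraries and the depth-corrected totals per nucleus, which the authors also deposited, were not used.

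The libraries hold 4044 and 4214 called barcodes with 11007366 and 23202343 UMIs. Counts were summed per library and group, scaled to CPM, and compared as log2 ratios of CPM + 5 for genes with at least 10 UMIs seen or expected per library. With 1 library per sex no p-value was computed, and intervals (exact, 95%) cover counting error only. The comparison with the neuron subset was tested on simulated counts with large set changes, without spread between nuclei or ambient RNA. The comparison with cluster 7 was not simulated. Shares were also taken after thinning to 2300 and 1000 UMIs. No doublet caller was run on the table, and 1000 UMIs and the 2-fold size were chosen after the data were seen. By rule, named genes could be any list gene, the 15 genes called in each direction against the neuron subset with the largest smaller ratio of both libraries, up to 10 against cluster 7, Atf3, Ecel1, Ddit3, genes the study shows, the reporter and sex-linked genes. The genes named at 2-fold against cluster 7, Gm42418 and the other noncoding genes were chosen after their values were seen. The 39 lists (411 genes, 1 not in the matrices) and the members were chosen with earlier results of these data known. Promoters came from RefSeq (GRCm38.p6) and gene spans from GENCODE vM21. Tools were Python 3.11.15, numpy 2.4.6, scipy 1.17.1, pandas 2.3.3, R 4.3.3, edgeR 4.0.16 and DESeq2 1.42.0, the last 2 for scaling factors only. Some items are not reported here.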

Additional observations from a re-analysis of the deposited data

How the results depend on the processing

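The values rest on 35 and 27 shallow nuclei, and with 1 library per sex the spread between animals is unknown. Of the counts against the neuron subset (79 higher, 62 lower), a minimum of 20 UMIs gave 37 and 26, a minimum of 1 UMI 208 and 340, TMM factors 131 lower and DESeq2 size factors 99 lower; a single library gave 120 to 163 higher and 81 to 159 lower. These scalings moved the median log2 ratio of all genes from 0.23 and 0.01 to -0.32 and -0.37 (TMM) and to -0.11 and -0.13 (DESeq2), and against cluster 7 from -0.04 and -0.29 to -0.58 and -0.60 and to -0.34 and -0.35. Against cluster 7 (1 higher, 0 lower at 4-fold), TMM gave 0 and 2, DESeq2 factors 0 and 1, a minimum of 1 UMI 20 and 62, single libraries 7 to 23 and 4 to 11, and the shallow nuclei of cluster 7 0 higher; leaving out 1 female nucleus rich in microglial UMIs, or the deepest female nucleus, gave 2 higher, and totals without mitochondrial genes, Gm42418, Gm26917 and Cmss1 gave 3. At 2-fold (22 and 18), TMM gave 4 and 132, DESeq2 factors 13 and 51, a minimum of 20 UMIs 10 and 10, of 1 UMI 369 and 195, single libraries 106 to 121 and 46 to 158, and the shallow nuclei 6 and 7; counting each nucleus alike gave 10 lower and the reduced totals 11 lower. Fewer or more genes reach another UMI minimum; otherwise the cause was not tested. Pearson's r to cluster 7 was 0.879 and 0.899. The other settings kept the counts within 1.5 times. Sign was checked for the 15 leading genes in each direction against the neuron subset and for mt-Cytb against cluster 7. None changed the sign of its mean log2 ratio over the libraries used under the settings run. The sign of other named genes was not checked. Thinned to 2300 UMIs, no male nucleus of cluster 23 was left. No paired analysis was possible because each sex has a single library and no result comes from a test.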
